A study of Mus musculus with 2 samples.

Results

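The 9 mouse genes described here, Tdrd1, Tdrd3, Tdrd5, Tdrd6, Tdrd7, Tdrd9, Tdrd12, Tdrkh and Rnf17, encode proteins with Tudor domains. They were chosen by name, and every H3K4me3 peak that overlapped a gene body or the 5 kb on either side of it was taken, which gave 24 peaks of 135064 in the whole list. H3K4me3, trimethylation of histone H3 that is found at active and poised gene starts, was mapped by CUT&RUN, in which an antibody brings a nuclease to its target in permeabilised cells. The cells were prospermatogonia, which are fetal male germ cells, taken at E17.5 and sorted as Oct-GFP+, with 130000 cells per assay. There was 1 library for H3K4me3 and 1 for IgG, and the labels name no replicates, genotype or strain, and IgG values were not analysed here. All values below are therefore from 1 library, with counting intervals and no test between conditions.

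Tudor domains bind methylated arginine or lysine. In germ cells they hold together granules in which PIWI proteins, which carry methylated arginines, are loaded with piRNAs, the small RNAs that guide the silencing of transposons. In fetal prospermatogonia this pathway directs DNA methylation to transposons, with some of its proteins in the granular cement between mitochondria and others in processing bodies. Later, in spermatocytes and spermatids, other Tudor proteins build the chromatoid body and related granules. Among the 9, Tdrd3 stands aside: its product is found in many tissues, binds methylated arginines and works with a topoisomerase in transcription and RNA handling, so the label of a germ granule gene is loose for it.

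Starts of 7 of the 9 genes were listed in the RefSeq promoter table (GRCm38.p6, the same build as mm10), 12 starts in all, and the 250 bases before 7 of them are shown because they set marked beside unmarked starts and CpG-rich beside CpG-poor ones. Starts are numbered in the direction of the gene, and CG dinucleotides are in capitals. The first 4 lines pair a start without a peak with a marked start of the same gene, and the last 3 are marked starts that differ widely in CpG content.
Tdrd7 start 1, no peak within 1 kb (chr4:45965085-45965334, plus strand): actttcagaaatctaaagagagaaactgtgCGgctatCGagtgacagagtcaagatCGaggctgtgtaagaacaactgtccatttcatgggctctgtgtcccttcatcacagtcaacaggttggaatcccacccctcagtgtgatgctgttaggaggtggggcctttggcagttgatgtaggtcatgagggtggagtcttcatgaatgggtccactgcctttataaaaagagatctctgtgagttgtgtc
Tdrd7 start 2, marked (chr4:45972047-45972296, plus strand): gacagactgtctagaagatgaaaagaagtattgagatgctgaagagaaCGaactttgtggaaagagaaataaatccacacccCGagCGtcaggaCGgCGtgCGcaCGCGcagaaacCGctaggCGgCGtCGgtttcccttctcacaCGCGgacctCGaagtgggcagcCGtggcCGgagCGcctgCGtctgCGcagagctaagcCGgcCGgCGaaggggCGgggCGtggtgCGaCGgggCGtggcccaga
Tdrd1 start 3, no peak within 1 kb (chr19:56830462-56830711, plus strand): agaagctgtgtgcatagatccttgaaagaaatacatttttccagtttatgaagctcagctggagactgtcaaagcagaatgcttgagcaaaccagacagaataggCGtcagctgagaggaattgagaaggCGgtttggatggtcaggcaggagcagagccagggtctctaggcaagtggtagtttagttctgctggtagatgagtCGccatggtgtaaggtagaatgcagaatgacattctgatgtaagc
Tdrd1 start 2, marked (chr19:56826025-56826274, plus strand): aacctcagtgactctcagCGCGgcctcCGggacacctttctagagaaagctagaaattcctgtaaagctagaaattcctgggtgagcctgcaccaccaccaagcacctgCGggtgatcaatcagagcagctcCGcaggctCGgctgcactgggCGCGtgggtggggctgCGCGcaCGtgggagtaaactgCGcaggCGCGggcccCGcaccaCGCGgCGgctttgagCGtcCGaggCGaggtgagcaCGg
Tdrd12 start 1, marked (chr7:35537745-35537994, minus strand): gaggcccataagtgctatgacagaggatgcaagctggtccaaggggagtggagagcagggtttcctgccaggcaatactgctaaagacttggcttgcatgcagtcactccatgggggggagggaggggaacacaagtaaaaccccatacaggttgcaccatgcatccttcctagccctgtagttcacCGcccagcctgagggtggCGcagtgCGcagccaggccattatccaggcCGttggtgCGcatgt
Tdrd9 start 1, marked (chr12:111971309-111971558, plus strand): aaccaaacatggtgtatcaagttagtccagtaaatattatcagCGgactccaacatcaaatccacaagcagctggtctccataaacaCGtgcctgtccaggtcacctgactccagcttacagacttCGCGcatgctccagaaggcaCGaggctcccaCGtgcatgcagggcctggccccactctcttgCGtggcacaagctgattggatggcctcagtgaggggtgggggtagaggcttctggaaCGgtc
Tdrd5 start 1, marked (chr1:156303349-156303598, minus strand): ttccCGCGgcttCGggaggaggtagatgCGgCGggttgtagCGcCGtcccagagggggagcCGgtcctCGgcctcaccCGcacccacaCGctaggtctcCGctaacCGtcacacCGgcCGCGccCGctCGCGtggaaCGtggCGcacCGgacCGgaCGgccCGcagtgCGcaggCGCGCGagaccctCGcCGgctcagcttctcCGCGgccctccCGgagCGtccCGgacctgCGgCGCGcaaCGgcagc

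Each of the 9 genes had H3K4me3 near a listed start or, for Tdrd6 and Rnf17, near an annotated end. A gene counted as marked where a peak overlapped the 1 kb on either side of a listed start, or of either annotated end for Tdrd6 and Rnf17. All 9 were marked by this rule, against 73.6% of 21887 protein-coding genes, and all 9 had a peak in the body or flanks, against 88.3%. For each gene the level is given as the summit pileup, the number of fragments stacked at the summit of its tallest start peak. It is also given as the fold, which is that pileup plus 1 over the local background plus 1. Pileups of the 9 genes spanned a narrow range, from 32 to 46 fragments with a median of 43, and the median over all marked protein-coding genes was 42, with quartiles of 37 and 47. None of the 36 pairs of members had 95% Poisson intervals of pileup that were apart. Folds ran from 3.13 to 9.20 with a median of 5.68, against 6.11 over all marked genes. Fold intervals carry only the counting error of the pileup and take the background as exact. In 7 of the 36 pairs the fold intervals were apart, each of them with Tdrd12 or Tdrd1 on one side. Pileup was above the median of marked genes in 5 of 9 members, against 47.4% of marked genes, and fold in 4 of 9, against 50%, so neither level set the 9 apart.

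**Figure D1:**
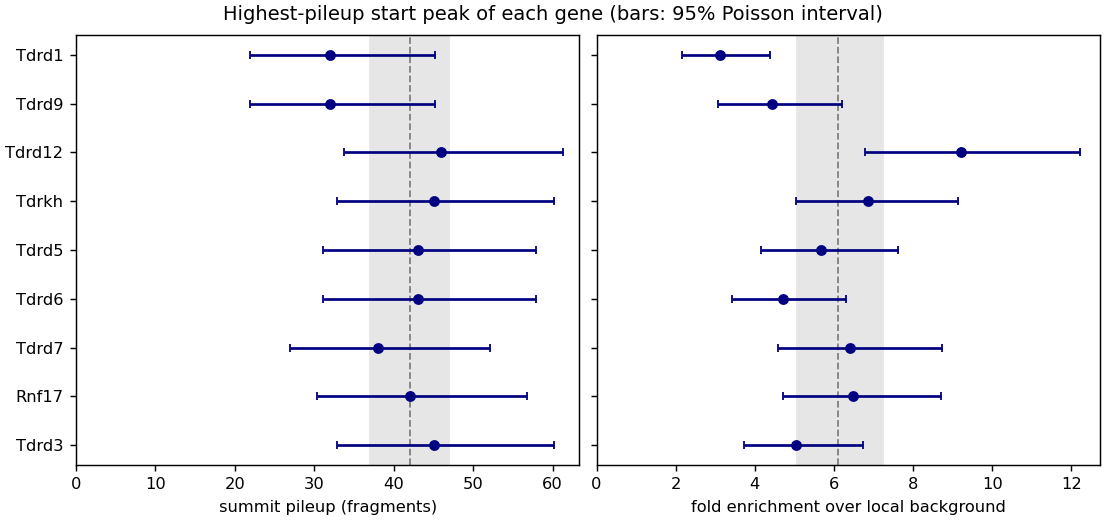
Summit pileup in fragments (left) and fold enrichment over the local background (right) of the tallest start peak of each gene, as points with 95% Poisson intervals. The grey band is the range between the quartiles of all marked protein-coding genes and the dashed line their median; pileups lie between 32 and 46, while folds run from 3.13 at Tdrd1 to 9.20 at Tdrd12.

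Tdrd1, Tdrd9, Tdrd12 and Tdrkh, which act in piRNA production in fetal germ cells, held both the highest and the lowest folds. Tdrd12, a helicase-like protein needed for piRNAs that load the nuclear PIWI protein, had 1 peak of 1359 bp across its 2 listed starts (chr7:35536866-35538224). Its summit lay 101 bp downstream of the nearer start, with 46 fragments (33.7 to 61.4) over a background of 4.11. The fold of 9.20 (6.79 to 12.2) was above that of 95.4% of marked protein-coding genes, while the pileup was above that of 68.7%. Its background was higher than that of only 17.4% of them. The high fold of Tdrd12 thus went with a low local background more than with a tall peak. No other peak lay in its body of 70.8 kb or its flanks. How the local background was made is not given, and the share of nearby peaks in it was not tested for any member.

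Tdrd1 encodes a scaffold with several Tudor domains that binds the PIWI protein of the cement between mitochondria. Its start held 2 small peaks, 1 of 158 bp upstream (chr19:56825582-56825739), the smallest width in the whole list, and 1 of 640 bp downstream (chr19:56826295-56826934). The upstream peak had 32 fragments (21.9 to 45.2) and a fold of 3.13 (2.17 to 4.37), and the downstream peak had 29 fragments (19.4 to 41.6) and a fold of 3.18. Starts 1 and 2 lay in the gap between them, 86 and 20 bp from the nearest peak edge. The fold was above that of 2.77% of marked genes, the pileup above that of 11.1%, and the background of 9.56 above that of 88.9%. Tdrd1 was thus low by both measures, although its pileup interval overlapped those of all other members. The −log10 q of its start peaks, 6.78 and 6.37, were below those of the tallest start peaks of the other 8 genes. At a −log10 q of at least 10 it was the only member without the mark, and 67.7% of protein-coding genes were marked.

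Tdrd9, a helicase with a Tudor domain that works with the nuclear PIWI protein, had a single start peak of 746 bp (chr12:111971374-111972119). It also had 32 fragments (21.9 to 45.2), with a fold of 4.43 (3.07 to 6.20), and its summit lay 24 bp downstream of the start. Tdrkh, an adaptor on the mitochondrial surface needed for trimming of piRNA ends, had a pair of start peaks. The taller, of 744 bp (chr3:94413196-94413939), covered the start with 45 fragments (32.8 to 60.2) and a fold of 6.86 (5.05 to 9.13). The other, of 711 bp (chr3:94412385-94413095), lay upstream with 35 fragments and a fold of 5.45, and an annotated end of the long noncoding RNA gene 1700040D17Rik lay within 1 kb of both. Reads cannot be assigned to either gene from the peak list.

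Tdrd5, Tdrd6, Tdrd7 and Rnf17 have roles in the granules of spermatocytes and spermatids, which does not exclude earlier ones. All were marked in these premeiotic cells. Their pileups were 43, 43, 38 and 42 fragments, each within the quartiles of all marked genes. Tdrd5, which joins a LOTUS domain to a Tudor domain, had a peak of 1338 bp over its listed start (chr1:156302332-156303669) with 43 fragments (31.1 to 57.9) and a fold of 5.68 (4.15 to 7.61). A second peak of 543 bp lay 444 bp upstream of that start, with 37 fragments and a fold of 4.92. Tdrd7, another LOTUS and Tudor protein, also known for its role in the lens, had 3 peaks within 1 kb of its starts 2 and 3. They measured 780, 645 and 211 bp in the direction of the gene, with 34, 38 and 20 fragments and folds of 5.73, 6.41 and 3.42. The middle one is the tallest (chr4:45972645-45973289), and its summit lay 20 bp upstream of start 3. Its marked starts lie inside the annotated gene, so with annotated ends in place of listed starts, which marked 74.5% of protein-coding genes, Tdrd7 was the only member not marked.

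Rnf17, a protein with a RING finger and Tudor domains that forms granules of its own, had 1 peak of 1919 bp (chr14:56401510-56403428) over the lower of its annotated ends. It had 42 fragments (30.3 to 56.8) and a fold of 6.48 (4.71 to 8.70), with the summit 182 bp inside the gene. Tdrd6, a large protein with many Tudor domains needed for the chromatoid body, had a single peak of 2353 bp (chr17:43628634-43630986), the widest of the 24. It had 43 fragments (31.1 to 57.9) and a fold of 4.70 (3.43 to 6.30). This peak lay inside the gene, 860 bp from its upper annotated end at the nearest edge and 2187 bp from it at the summit. Tdrd6 was therefore not marked within 500 bp, with the summit in the window, or with at least 200 bp shared. Those settings marked 71.3%, 71.2% and 72.1% of protein-coding genes, and within 2500 bp, where all 9 members were marked, the share was 77.8%. With start sites listed for neither gene, the peaks of Rnf17 and Tdrd6 are placed against annotated ends only.

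Tdrd3, the general member, had 2 peaks that stood on either side of its start, with the start itself in a gap of which the nearer edge was 63 bp away. The upstream peak of 1057 bp (chr14:87415464-87416520) had 36 fragments and a fold of 3.61. The downstream peak of 784 bp (chr14:87417315-87418098) had 45 fragments (32.8 to 60.2) and a fold of 5.05 (3.71 to 6.72), with its summit 1072 bp inside the gene. With gaps of up to 1000 bp closed, they formed a domain of 2635 bp, wider than that of 94.1% of marked genes.

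**Figure D2:**
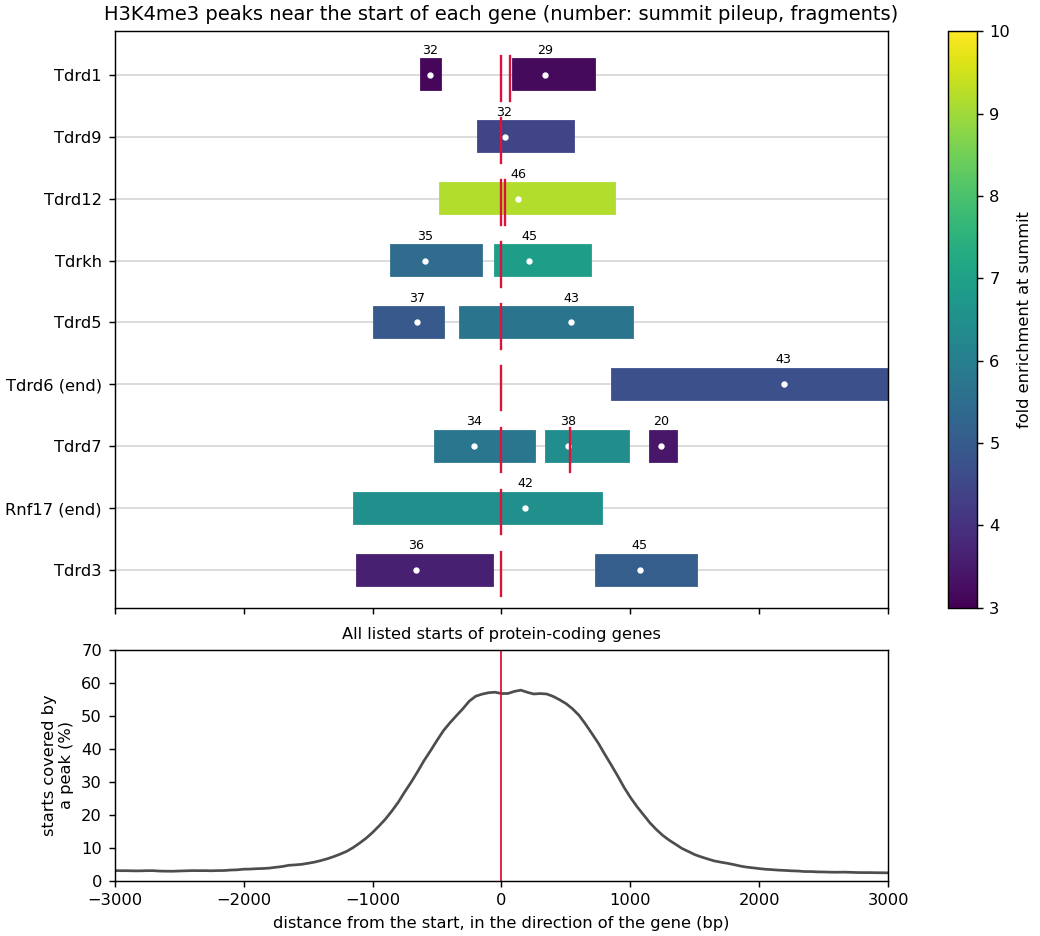
Upper panel: peaks as boxes within 3 kb of the first marked start of each gene (of the annotated end nearest the peak for Tdrd6 and Rnf17), in the direction of the gene or into it, coloured by fold; red lines are listed starts or ends, white dots are summits, and the numbers are summit pileups in fragments. Lower panel: percent of all listed protein-coding starts covered by a peak at each distance, which reached 57.9% at 150 bp downstream; the starts of Tdrd1 and Tdrd3 lie in gaps between peaks, and the peak of Tdrd6 lies furthest from its mark.

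The shape of the mark at the start also differed among the 9 genes. In 5 of 9 members the start window held 2 or more peaks (Tdrd1, Tdrd3, Tdrd5, Tdrd7 and Tdrkh), against 42.4% of marked protein-coding genes, so a split mark was about as frequent as elsewhere. The summit of the tallest peak lay downstream of the nearest listed start in 5 of 7 members, against 57.8% of marked genes with a listed start. With gaps of up to 1000 bp closed, the start domains measured 746 to 2635 bp, and their median was 1882 bp, where that of all marked genes was 1592 bp. The widest 5% of domains in the library measured at least 2001 bp, and the start domains of Tdrd3 (2635 bp), Tdrd6 (2353 bp) and Tdrd5 (2003 bp) were among them. That is 3 of 9, against 24.7% of marked protein-coding genes, and Tdrd5 passed the limit by a small margin. Domains of Tdrd1, Tdrd9, Tdrd12 and Tdrkh measured 746 to 1555 bp, and those of Tdrd5, Tdrd6, Tdrd7 and Rnf17 measured 1882 to 2353 bp. These ranges did not overlap, but both reach into the range between the quartiles of all marked genes, 1217 to 1994 bp. This grouping by role was made after the widths were seen, and the roles are not exclusive, so no difference by role can be drawn from it. With Tdrd5 (2003 bp) placed in the first group the ranges would overlap. Without joining the ranges overlapped, since single tallest peaks of the first group measured up to 1359 bp and that of Tdrd7 645 bp.

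Within Tdrd7 and Tdrd1, which have starts far enough apart to be told from each other, the starts rich in CpG were marked and those poor in CpG were not. CpG content is given as observed over expected in the 300 bases of a promoter entry, from 250 before the start on. At Tdrd7 this ratio was 0.234 at start 1, which had no peak nearer than 6445 bp, against 1.11 and 0.863 at starts 2 and 3. The printed Tdrd7 sequences hold 3 CG dinucleotides at start 1 and 28 at start 2. At Tdrd1 it was 0.733 and 0.810 at starts 1 and 2, and 0.216 at start 3 inside the gene, which had no peak nearer than 3778 bp. The same order held in most genes: of 785 protein-coding genes with a marked and an unmarked start over 2000 bp apart, 733 (93.4%, Wilson interval 91.4 to 94.9) had the higher ratio at a marked start.

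Other members were marked with far fewer CpGs than the rest. Tdrd12, with the highest fold of the 9, had ratios of 0.341 and 0.408 at its starts, and Tdrd9 had 0.430. Their printed sequences hold 5 and 8 CG dinucleotides, against 40 in that of Tdrd5, whose ratio was 1.11. The ratio was 1.03 at Tdrd3 and 0.956 at Tdrkh. Of all protein-coding starts with a ratio between 0.25 and 0.5, 64.6% (63.1 to 66.1) were marked. The share was 22.4% (21.3 to 23.5) below 0.25, where both unmarked starts of the members fall, and 99.2% (99.0 to 99.4) at 0.75 and above, where 6 of their 12 starts fall. Among the 2512 marked starts with a ratio between 0.25 and 0.5, the fold of Tdrd12 was above 89.4% and that of Tdrd9 above 13.4%. These 2 genes of the same role and CpG class thus stood near opposite ends in fold. Their fold intervals, which take the background as exact, did not overlap, while their pileups of 46 and 32 had overlapping intervals.

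**Figure D3:**
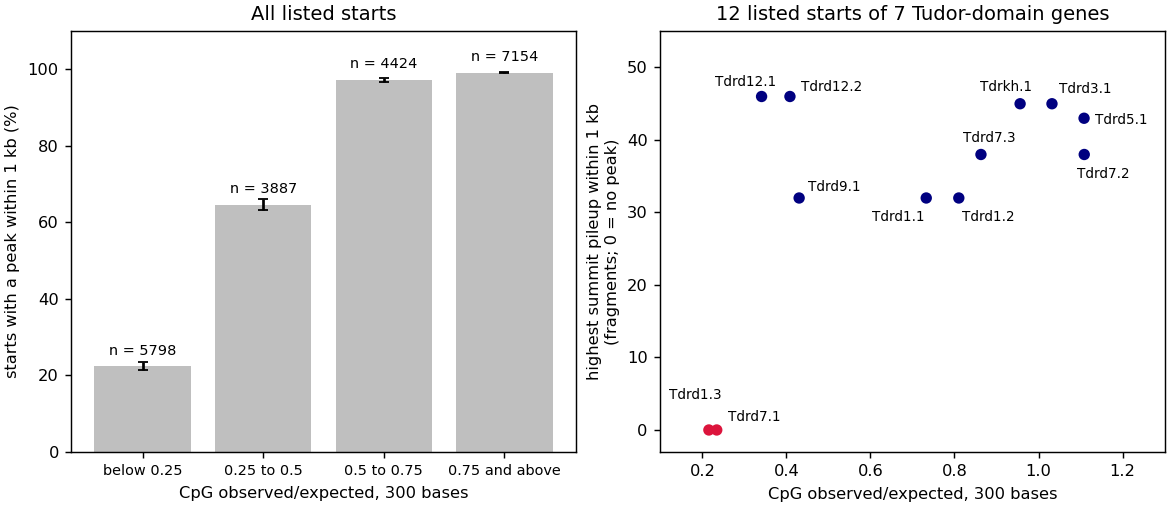
Left: percent of all listed protein-coding starts with a peak within 1 kb, by CpG observed over expected in 300 bases, with 95% Wilson intervals and the number of starts. Right: highest summit pileup within 1 kb of each of the 12 listed starts of 7 members against the same ratio, labelled by gene and start number, with starts without a peak at 0 in red; both of these have ratios under 0.25, while Tdrd12 has 46 fragments at ratios of 0.341 and 0.408.

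Short motifs were searched on both strands of the 300-base entries, and a match is only a match of letters. The E-box CACGTG was found in Tdrd9, with its first base 165 and 95 bases before the start, and in Tdrd1, where it lies 11 bases before start 1 and so 77 before start 2. In the sequences above it reads caCGtg. It was found in 7.15% of the 32850 entries, and in 3 of 12 entries of the members, which include overlapping entries of Tdrd1. The letters TATAAA were found at both unmarked starts, 29 bases before Tdrd7 start 1 and, on the other strand, 37 bases after Tdrd1 start 3, and at none of the 10 marked ones. All entries held them in 13.6% of cases, and of protein-coding starts that held them 42.4% were marked, against 75.7% of those that lacked them. The median CpG ratio of these starts was 0.242 with TATAAA and 0.617 without. The GC box GGGCGG was found in Tdrd3, Tdrd7, Tdrd12 and Tdrkh (35.7% of all entries), and CCAAT in Tdrd9 and Tdrkh (37.4%), with 5 matches on the other strand of Tdrkh. The MYB letters TAACNG were found in Tdrd5, Tdrd7, Tdrd12 and Tdrkh (23.3%). The E2F letters TTCCCGCC (2.19%) and the NRF1 palindrome (0.971%) were found in none.

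Few peaks lay in the bodies of the members away from the start. A summit inside the gene and over 1 kb from a start was present in 2 of 9 members, Tdrd3 and Tdrd6, against 55.6% of protein-coding genes of the same range of length (16.5 to 129 kb). The other 7 genes, of 21.6 to 122 kb and 475 kb in all, had none. Rnf17 at 122 kb and Tdrd9 at 97.4 kb held no interior summit, as did 24.1% of genes between 80 and 160 kb. Between 40 and 80 kb, where Tdrd1, Tdrd5, Tdrd7 and Tdrd12 lie, 39.4% of genes had none. Summed over the 9 bodies there were 4 such summits, or 6.44 per Mb (1.76 to 16.5), against 28.6 per Mb in other genes of that range of length. Of these 4, the one of Tdrd6 and the one nearest the start of Tdrd3 belong to the start domains described above. The interval takes summits as independent, but 3 of the 4 were in Tdrd3. It may therefore be too narrow, and a depletion was not tested. Over 5 kb from starts and ends, 1 of 9 members held a summit, against 39.3% of genes of that range. No peak lay within 1 kb of the 3′ end in the 7 members with a listed start, against 13.9% of such genes over 5 kb long.

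Both deep summits were in Tdrd3, at 28116 and 79247 bp from its start. The first had the highest fold of all 24 peaks, 9.64 (6.56 to 13.7), with 29 fragments (19.4 to 41.6) in a peak of 364 bp (chr14:87444516-87444879). Its pileup was below that of either start peak of the gene, 36 and 45 fragments, and its fold was higher beside a background of 2.11, the lowest in the list, against 9.26 and 8.11. The second was 158 bp wide, also the smallest width in the whole list, with 16 fragments (9.15 to 26.0), the lowest pileup of the 24. Its fold was 5.46, over the same lowest background of 2.11. Whether these short peaks would remain against IgG was not tested.

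**Figure D4:**
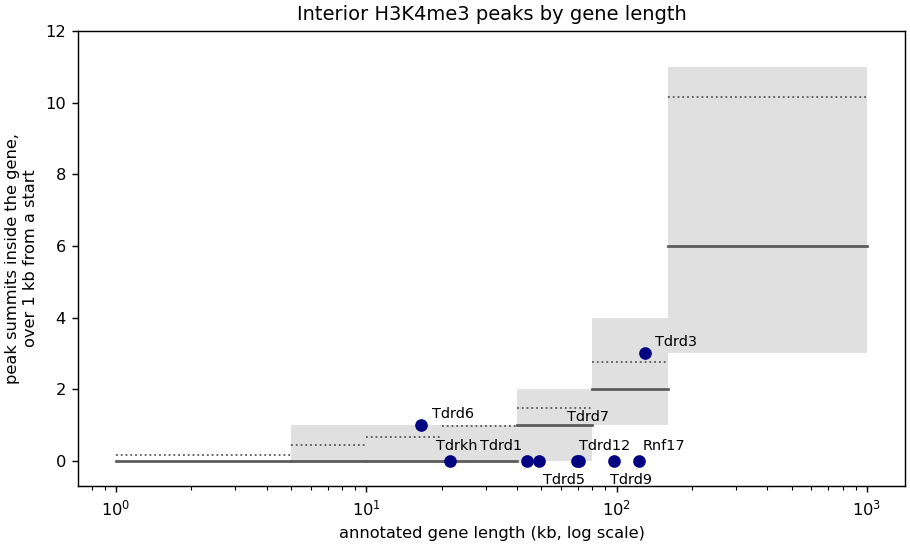
Number of summits inside a gene and over 1 kb from a start, against annotated gene length in kb on a log axis. Points are the 9 members; for bins of length over all protein-coding genes the solid line is the median, the dotted line the mean and the grey band the range between quartiles, and 7 of 9 members lie at 0.

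The flanks held 7 of the 24 peaks, and 6 of these lay within 1 kb of an end of another gene. Upstream of Tdrd1, 2 peaks with 39 and 32 fragments lay at an end of Ccdc186, which is 4010 bp from Tdrd1 start 1. Beyond its other end a peak of 1584 bp with 41 fragments lay at the start of Vwa2. Upstream of Tdrd9, 2 peaks with 38 and 25 fragments lay at an end of Atp5mpl, a small subunit of ATP synthase, which is 4550 bp from the Tdrd9 start. Downstream of Tdrd7 a peak of 1578 bp with 39 fragments lay at the start of Tmod1, which encodes a cap of actin filaments. The peaks at Ccdc186, Vwa2, Atp5mpl and Tmod1 reached pileups as high as or higher than those of the member beside them (32, 32, 32 and 38 fragments), with overlapping intervals. The seventh, of 214 bp with 21 fragments upstream of Tdrd3, was near no other gene end. Pla2g7, with an end 3132 bp from Tdrd6, and Cenpj, with an end 1729 bp from Rnf17, brought no peak into a flank. Nor did Oaz3, a gene of spermatids that overlaps the 3′ end of Tdrkh and had no peak within 1 kb of either annotated end. The flank peak furthest from a body, at 4339 bp from Tdrd9, had a fold of 5.70, and the nearest peak left out, at 5937 bp from Tdrd5, had 7.78 with 39 fragments.

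**Figure D5:**
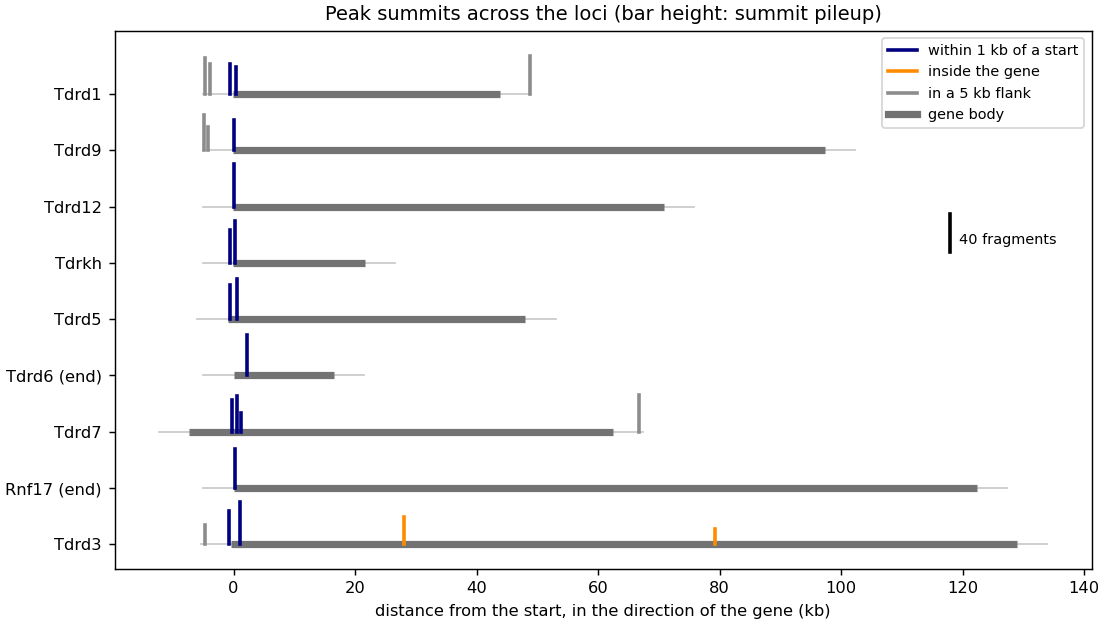
Peak summits across the 9 loci, with distance from the first marked start (from the end nearest the peak for Tdrd6 and Rnf17) in kb in the direction of the gene; bars have heights in proportion to summit pileup, thick lines are gene bodies and thin lines 5 kb flanks. Peaks gather at starts (blue, overlapping the 1 kb around a start, or around an end for Tdrd6 and Rnf17). The 2 other peaks with a summit inside a gene (orange) are both in Tdrd3. The blue peak of Tdrd6 and the taller blue peak of Tdrd3 also have summits inside the gene, 2187 and 1072 bp away.

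Most other genes of the pathway were also marked, as were 73.6% of all protein-coding genes. Of 23 genes of piRNA production and silencing, 21 had a start peak, with a median pileup of 39 fragments and a median fold of 7.01, against 43 and 5.68 for the 9 members. The tallest were Exd1, a partner of Tdrd12, with 52 fragments (38.8 to 68.2), Mybl1, the transcription factor that drives piRNA precursors in meiosis, with 46, and Gtsf1, a small zinc finger cofactor of PIWI proteins, with 45. Nanos2, an RNA-binding regulator of male germ cell fate, and the PIWI gene Piwil2 had no peak at a listed start or annotated end, although 1 summit lay inside Piwil2. The body and 5 kb flanks of Nanos2 held 4 peaks, and those of Piwil2 held 2. Of 21 other genes with Tudor domains 20 were found by name and all 20 were marked, with a median pileup of 42 and a median fold of 5.47. Setdb1, an H3K9 methyltransferase, had 56 fragments (42.3 to 72.7), and Lbr of the nuclear envelope and Trp53bp1 of DNA repair had 52 each. In 7 of the 23 and 8 of the 20 genes a summit lay inside the gene and over 1 kb from a start. The share was 43.3% of all protein-coding genes and 55.6% of those in the length range of the members. Few interior summits were thus not particular to the 9 members. The lists were not matched for length, with medians of 31.1 and 43.3 kb against 17.2 kb over all protein-coding genes. With a fold of at least 5, 56.7% of protein-coding genes, 21 of the 23 and 14 of the 20 were marked, and 6 of the 9 members, without Tdrd1, Tdrd6 and Tdrd9.

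In the library as a whole the median peak had 27 fragments and a fold of 6.0, and no total of fragments was found in the labels or the file. Of 8 germ cell markers 6 were marked at the start, where 73.6% of all protein-coding genes were marked by the same rule. The 6 include Ddx4 and Dazl, and Nanos2 and Nanos3 were not marked at the start. Markers of Sertoli cells were marked in 4 of 5 cases (Amh, Sox9, Dhh and Wt1), of Leydig cells in 1 of 5 (Lhcgr) and of endothelium and blood in 2 of 5 (Tek and Hba-a1). Unmarked markers could hold peaks in the body or 5 kb flanks, as did 88.3% of all protein-coding genes. There were 4 at Nanos2, 1 at Nanos3, 15 at Gata4, 5 at Insl3, 6 at Ptprc, 3 at Cdh5 and 2 at Pecam1. Cyp17a1, Hsd3b1 and Star had 0. H3K4me3 can mark genes that are not expressed, so these counts do not measure other cells in the sort, and the part of such cells in the peaks of the members was not tested.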

How the data were processed

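CUT&RUN for H3K4me3 was analysed in 1 library from 130000 sorted cells. MACS2 2.1.0, Bowtie2 2.5.0, deepTools 3.5.1, bedtools 2.27.1, SAMtools 1.16.1 and Trim Galore stand in the submitters' processing notes beside the builds mm10 and sacCer3, with settings not given there. The authors deposited a peak list with a fold (a ratio over the local background), −log10 p and −log10 q values, a score and the summit position of each peak. The deposited score was not used. The list belongs to this library alone, and its values are the authors' and were used only within the list. Peak names carry the letters wIgG, and the notes do not say how IgG entered the calling.

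Pileup and background were solved from fold and −log10 p, taking p as a Poisson upper tail, in 135063 of 135064 peaks within 0.001. Genes came from RefSeq (GRCm38.p6), and starts and sequences from its promoter table, which lists 17492 of 21887 protein-coding genes. Either annotated end stood in for a start in the others. Table starts were taken as the base after the first 250, an offset at which 19827 entries meet a gene end. Intervals (95%, exact Poisson or Wilson) cover counting error only, since no molecular identifiers are given. The members and lists were chosen with earlier results of these data known. By rule all 9 members, their peaks, neighbours with an end within 5 kb of a start, and the tallest 3 and the unmarked genes of the piRNA and the other Tudor-domain list are named; any other gene, cell type markers included, was picked with its values in view. Alternatives covered windows, overlap, stricter peaks, flanks and joining. The scripts were tested on simulated data, where 200 of 200 planted genes were called among 21887, and 4204 of 4204 pileups were recovered. The simulation was built with the same formula and start window. It therefore checked the code only, and not whether the Poisson form or the start rule suits these peaks. The scripts used scipy 1.17.1, numpy 2.4.6, pandas 2.3.3 and matplotlib 3.10.9 under Python 3.11.15.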

Additional observations from a re-analysis of the deposited data

How the results depend on the processing

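Of 43 alternative values of 9 results, 37 stayed within 1.5 times the count or, for median pileup and fold, within the Poisson interval of the median. Domain width has no such interval, so any change of it was counted as a move. The number of peaks in the 9 loci was 24, and 15 without flanks or 13 with a fold of at least 5. Members with a summit inside the gene numbered 2, and 1 with a fold of at least 5 or, in an alternative chosen after seeing the data, over 5 kb from starts and ends. The median domain width of 1882 bp became 784 bp without joining and 1919 bp with gaps of up to 3000 bp. Marked members numbered 6 to 9 over the alternatives. No paired analysis was possible because there is 1 library with values and no test. Pileups of 16 to 46 fragments limit the precision of each level, and no IgG or replicate values were used.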
